A study of Mus musculus with 4 samples.

Results

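The radial spoke genes of the mouse testis were followed in animals that lack Rfx2. Rows were taken by gene symbol for Rsph1, Rsph3a, Rsph3b, Rsph4a, Rsph6a, Rsph9, Rsph10b and Dnajb13, and values of rows with the same symbol were to be summed. In the files 7 of these 8 genes were listed, each in 1 row, among 22311 genes in all. Rsph10b was not listed and has no value here. RNA from whole testes of male mice was sequenced at postnatal day 24 (P24), with 2 samples of homozygous Rfx2-/- mutants (mutant 1 and mutant 2) and 2 control samples (control 1 and control 2). By the sample labels the controls were wild type and all 4 samples of strain DBA, whereas the study's methods describe heterozygous controls, targeting in 129/s6 embryonic stem cells and mice of a mixed 129/s6 and C57BL/6 background. In the mutant allele a neomycin-resistance cassette stands in place of the exons for the DNA binding domain of RFX2, in every cell of the animal, and all mutants descend from 1 targeted stem cell clone. RFX2 is a transcription factor of the regulatory factor X family, and the comparison asks which testis genes depend on it.

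Radial spokes are T-shaped protein complexes of cilia and sperm flagella. Each is anchored by its stalk to a doublet microtubule and points its head at the central pair of microtubules, and through this contact the central pair controls the dynein motors that bend the axoneme. RSPH1, RSPH4A, RSPH9 and RSPH10B are proteins of the spoke head, RSPH6A is a close relative of RSPH4A, RSPH3 is a stalk protein, and DNAJB13 is a co-chaperone of the HSP40 family built into the spoke. Human mutations in several of these genes cause primary ciliary dyskinesia.

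The values are FPKM, fragment numbers scaled by transcript length and by the depth of the sample, so that levels can be compared between genes. Differences were tested with limma on log2(FPKM + 1). The test covered the 12985 genes that reached an FPKM of 1 in 2 or more of the 4 samples, with Benjamini-Hochberg adjustment over all of them and a threshold of 0.05. A log2 difference is mutant minus control on this scale, which understates the change of genes with low FPKM. By this test 2 of the 6 spoke genes that passed the filter were lower in the mutants, Rsph9 and Dnajb13. Across all tested genes 2.52% were lower. No spoke gene was higher by limma, against 0.308% of all tested genes. At an unadjusted p under 0.05 in limma, 2 of the 6 were lower and 0 were higher. The share of all genes at that level was not taken. Both mutant samples lay below both controls for 3 of the 6, Rsph9, Dnajb13 and Rsph1, where 15.2% of all tested genes did so. Both mutants lay above both controls for 0 of the 6, against 16.3% of all tested genes. The median log2 difference was -0.27 for the 6 spoke genes and 0.03 for all tested genes. The RNA came from whole testes, so fewer cells of a type and less RNA per cell cannot be told apart.

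The targeted gene itself was read as a check on which group was mutant. Rfx2 stood at an FPKM of 36.7 and 39.8 in the mutants and of 123 and 89.4 in the controls. The log2 difference was -1.43 (SE 0.19, adjusted p = 0.00617 from limma), a call that was lost without a filter (0.0607), with median-ratio scaling (0.0840) and without control 1 (0.0628). The value covers the whole gene, including exons outside the replaced part, and cannot tell wild-type from heterozygous controls. The files held between 22553 and 22563 rows per sample, with 12557 to 12942 genes at an FPKM of 1 or more. Of 64 tested markers in 9 lists of testis and ciliated cell types 0 were called by limma. Of all tested genes 2.52% were called lower and 0.308% higher. An unadjusted p under 0.05 in limma was found for 4 of the markers. These were Pgk2, Spaca7, Ccno and Deup1 (listed as Ccdc67), named after their values were seen. The share of all genes at that level was not taken, and equal cell make-up was not tested.

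**Figure D1:**
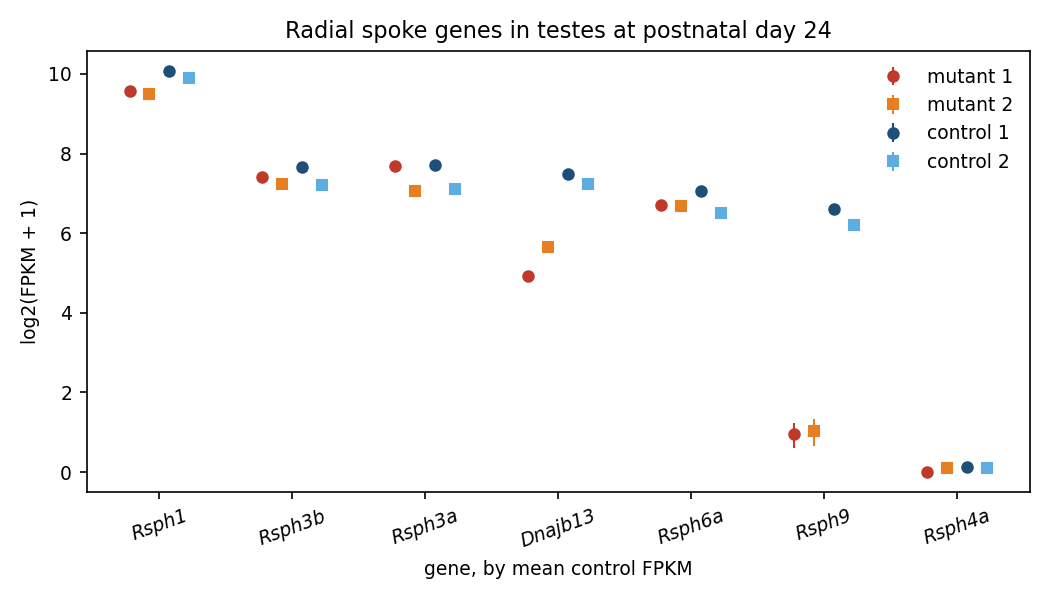
FPKM of the 7 listed radial spoke genes in each sample, on a log2(FPKM + 1) axis and ordered by mean control FPKM. Points are single samples (red and orange, mutants; blue, controls) and bars are the confidence bounds deposited with each FPKM, mostly narrower than the symbol. Rsph9 falls from 96.8 and 72.9 in the controls to 0.940 and 1.05 in the mutants, whereas Rsph3a, Rsph3b and Rsph6a overlap between the groups.

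In control testes the spoke genes spanned a wide range of levels. Rsph1 stood first, with a mean FPKM of 1012 ± 78.1 (SD, n = 2) and rank 17 of 22311 genes. Rsph3b at 173 ± 38.1, Rsph3a at 173 ± 51.0 and Dnajb13 at 164 ± 19.1 followed, and neighbours among these overlapped between their control samples. Rsph6a at 112 ± 30.0 lay below both control values of Dnajb13 and overlapped with Rsph9 at 84.9 ± 16.9. Rsph4a came last, at 0.0884 ± 0.0175. In the mutants the last places were again those of Rsph9 and Rsph4a, with Rsph9 now at a mean of 0.994 ± 0.0771 (SD, n = 2).

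Of the 6 tested spoke genes, Rsph9 had the lowest log2 difference. Rsph9 had an FPKM of 0.940 in mutant 1 and 1.05 in mutant 2, and of 96.8 in control 1 and 72.9 in control 2. Both mutant samples were close to each other and far below both controls. The mutant mean was 1.17% of the control mean, and the log2 difference was -5.41 (SE 0.21, 95% interval from -5.90 to -4.93, adjusted p = 2.14e-05 from limma). The deposited bounds ran from 0.530 to 1.35 in mutant 1 and from 0.580 to 1.52 in mutant 2, so the remaining level was low and was estimated from few fragments, about 21 and 20 as the width of the bounds implies. In NCBIM37 (mm9) Rsph9 lies on the minus strand at chr17:46258984-46281165, on the same chromosome as Rfx2 and 10.63 Mb away from it. Its end overlaps 6876 bases of Mrps18a on the opposite strand without any shared exon bases. Mrps18a, a mitochondrial ribosomal protein gene, had an FPKM of 55.1 and 54.4 in the mutants and 49.9 and 45.9 in the controls, and was not called (log2 difference 0.19, adjusted p = 0.9999 from limma).

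Rsph1, the most abundant spoke gene, was not called. Its FPKM was 766 in mutant 1, 723 in mutant 2, 1067 in control 1 and 957 in control 2. The groups did not overlap, but the log2 difference of -0.44 (SE 0.23, 95% interval from -0.98 to 0.10) had an adjusted p of 0.812 in limma. The mutant mean was 73.5% of the control mean. Rsph1 lies at chr17:31391964-31414301 on the minus strand, 25.5 Mb from Rfx2.

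The related genes Rsph4a and Rsph6a stood at very different levels. Rsph4a had an FPKM of 0 in mutant 1, 0.0790 in mutant 2, 0.101 in control 1 and 0.0760 in control 2, so it did not pass the filter and was not tested. Rsph6a had an FPKM of 104 in mutant 1, 103 in mutant 2, 133 in control 1 and 90.6 in control 2, with both mutants inside the range of the controls (log2 difference -0.09, SE 0.21, adjusted p = 0.9999 from limma). Within a sample Rsph6a was 1192-fold to 1322-fold above Rsph4a in the 3 samples where Rsph4a was above 0, although each of these Rsph4a values rested on about 7 to 10 fragments. RSPH4A is the form known from multiciliated cells such as those of the airway. Of 7 listed markers of multiciliated cells, 4 stayed below an FPKM of 1 in every sample: Mcidas (listed as Gm6320), Gmnc (listed as Gm606), Sntn and Myb. The other 3 had higher values. Foxj1, a regulator of motile cilia, had an FPKM of 19.6 and 27.3 in the mutants and 46.2 and 25.4 in the controls. Deup1 (listed as Ccdc67), which takes part in making many centrioles, had 15.6 and 26.4 in the mutants and 41.9 and 36.3 in the controls. Ccno, a cyclin-like protein, had 0.852 and 0.697 in the mutants and 1.35 and 1.51 in the controls, and none of these 3 was called by limma. Rsph4a (chr10:33624917-33635827) and Rsph6a (chr7:19640039-19659796) are both on the plus strand.

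The stalk gene is present as a pair of near copies on chromosome 17. Rsph3a lies at chr17:8138518-8172689 on the plus strand and Rsph3b at chr17:7109030-7153070 on the minus strand. Of all 50-base stretches in the transcripts of Rsph3a 68.3% also occurred in Rsph3b, and 71.8% of those of Rsph3b occurred in Rsph3a, so the split of reads between them is uncertain. No other pair of listed spoke genes shared such a stretch. Rsph3a had an FPKM of 207 in mutant 1, 133 in mutant 2, 209 in control 1 and 137 in control 2. Rsph3b had an FPKM of 169, 149, 200 and 146 in the same order. The groups overlapped for both genes, and neither passed the test (Rsph3a log2 difference -0.03, SE 0.28; Rsph3b -0.11, SE 0.21; adjusted p = 0.9999 for each from limma). Their summed FPKM, which still depends in part on the split since each gene is scaled by its own length, was 376 and 282 in the mutants and 409 and 283 in the controls. The sample numbered 1 was the higher one in both genotypes for this sum.

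Dnajb13, the HSP40 co-chaperone gene, was lower in the mutants but kept a clear signal. Its FPKM was 29.3 in mutant 1, 49.6 in mutant 2, 177 in control 1 and 150 in control 2. Both mutants lay well below both controls. The mutant mean was 24.1% of the control mean, with a log2 difference of -2.07 (SE 0.25, 95% interval from -2.65 to -1.49, adjusted p = 0.00334 from limma). The call was lost without a filter on low values (adjusted p = 0.0617), with median-ratio scaling of the samples (0.0635) and without control 1 (0.0541), where the log2 difference was -2.07, -2.09 and -1.95. Dnajb13 lies at chr7:107651527-107663469 on the minus strand, and its nearest listed neighbours Ucp2 and Chchd8 were not called.

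**Figure D2:**
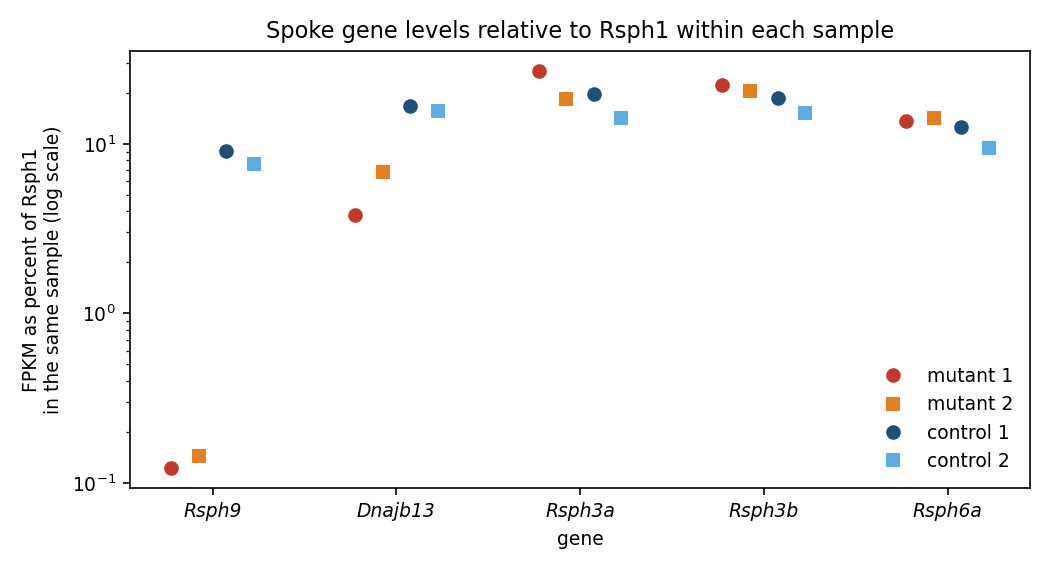
FPKM of 5 radial spoke genes as a percent of Rsph1 in the same sample, on a log axis, with 1 point per sample (red and orange, mutants; blue, controls). Rsph9 and Dnajb13 are lower relative to Rsph1 in both mutants. Rsph3b and Rsph6a sit slightly above both controls, and Rsph3a overlaps between the groups. Rsph1 itself, though not called, is lower in both mutants, and the FPKM of Rsph3b and Rsph6a overlaps between the groups.

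The make-up of the spoke transcripts therefore differed between genotypes within each sample, a measure on which any scaling between samples cancels. Rsph9 amounted to 9.07% and 7.62% of Rsph1 in the controls and to 0.123% and 0.145% in the mutants, a 62.3-fold difference of the mean ratios. Dnajb13 amounted to 16.6% and 15.7% of Rsph1 in the controls and to 3.83% and 6.86% in the mutants, a 3.02-fold difference. Rsph6a was 12.5% and 9.47% of Rsph1 in the controls and 13.6% and 14.2% in the mutants. The FPKM of Rsph6a overlapped between the groups, while that of Rsph1, though not called, was lower in both mutants. Rsph9 amounted to 54.6% and 48.5% of Dnajb13 in the controls and to 3.21% and 2.11% in the mutants. These ratios are descriptions without a test.

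Genes listed here as elongating spermatid markers were low in 1 of the mutant samples. The study found no elongating spermatids in mutant testes, yet saw TNP1 protein in detached mutant spermatids. Its RT-PCR showed no difference for transition proteins and protamines. The list name is thus a label, and its values do not count elongating cells. The summed FPKM of 10 elongating spermatid markers (protamines, transition proteins and flagellar proteins among them) was 1489 and 6896 in mutant 1 and mutant 2 and 8179 and 5628 in the controls. Mutant 1 was the low sample, and mutant 2 lay inside the range of the controls. In mutant 2 and in the controls this sum was carried largely by Tnp1, Tnp2, Prm1 and Prm2. For 2 of the 10, Tnp1 and Prm1, both mutants lay below both controls (log2 difference -1.71 and -1.89, adjusted p = 0.576 and 0.594 from limma). Of all tested genes 15.2% did so. The groups overlapped for the other 8. Among these, Oaz3 and Smcp had positive log2 differences (0.18 and 0.09), with mutant 2 above both controls. Prm1, for example, had an FPKM of 136 in mutant 1, 1195 in mutant 2, 1792 in control 1 and 1266 in control 2. The median log2 difference of the 10 was -0.54, and 0 of them were called. The summed FPKM of 11 round spermatid markers was 1068 in mutant 1, 2059 in mutant 2, 1868 in control 1 and 1513 in control 2. In mutant 2, where both sums were at or above the lower control, Rsph9 was at 1.05 and Dnajb13 at 49.6. Without mutant 1 the log2 difference was -5.38 for Rsph9 and -1.70 for Dnajb13. The part of these markers in the results was not tested.

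Genes of other spoke parts were divided in the same manner. Of 13 further genes for spoke-associated proteins 12 were listed, and all 12 were tested. By limma 5 of them were lower (Lrrc23, Iqub, Rsph14, Cfap91 and Ppil6) and none was higher, with a median log2 difference of -0.86. Across all tested genes 2.52% were lower and 0.308% higher, with a median of 0.03. Wdr66 (Cfap251) was not listed under its symbols or synonyms.

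The lowest was Lrrc23, which encodes a leucine-rich repeat protein of the third spoke of each repeat. Its FPKM was 0.288 in mutant 1, 0.398 in mutant 2, 75.4 in control 1 and 75.2 in control 2 (log2 difference -5.83, SE 0.19, adjusted p = 1.6e-05 from limma). Iqub, an IQ motif and ubiquitin-like domain protein of the spoke base, had an FPKM of 0.818 and 0.812 in the mutants and of 41.5 and 37.3 in the controls (log2 difference -4.47, SE 0.20, adjusted p = 2.6e-05 from limma). For both genes the groups were far apart and the replicates close together. Cfap91 (listed as 4932425I24Rik and matched through the synonyms of Maats1), a protein at the base of the spokes, had an FPKM of 1.79 and 3.44 in the mutants and of 28.7 and 19.9 in the controls (log2 difference -2.82, SE 0.29, adjusted p = 0.00149 from limma). Ppil6, a cyclophilin-type isomerase, had an FPKM of 7.56 and 8.23 in the mutants and of 24.4 and 20.6 in the controls (log2 difference -1.40, SE 0.19, adjusted p = 0.00603 from limma). Its call was lost without control 1 (adjusted p = 0.115) and without control 2 (0.0522).

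The other 7 did not pass the test. Nme5, a nucleoside diphosphate kinase homologue, had an FPKM of 43.6 and 51.0 in the mutants and of 97.8 and 73.4 in the controls (log2 difference -0.83, SE 0.19, adjusted p = 0.0816 from limma). Cfap61 (listed as 4930529M08Rik), a protein at the base of the spokes, had an FPKM of 4.05 and 4.003 in the mutants and of 8.002 and 6.08 in the controls (log2 difference -0.67, SE 0.22, adjusted p = 0.300 from limma). For these 2 genes both mutants lay below both controls, as they did for 15.2% of all tested genes. Dydc2 had an FPKM of 1.18 in mutant 1 and 5.36 in mutant 2, against 6.52 and 5.33 in the controls, so 1 sample alone was low. Its log2 difference was -0.89 (adjusted p = 0.757 from limma), and it was -0.12 without mutant 1 and -1.66 without mutant 2. Ropn1, Ropn1l, Dydc1 and Cfap206 (listed as 1700003M02Rik) had log2 differences between -0.11 and -0.05 with overlapping groups. Ropn1l, a docking protein of the stalk, had a level close to that of Rsph1, with an FPKM of 940 and 1081 in the mutants and 1187 and 939 in the controls.

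**Figure D3:**
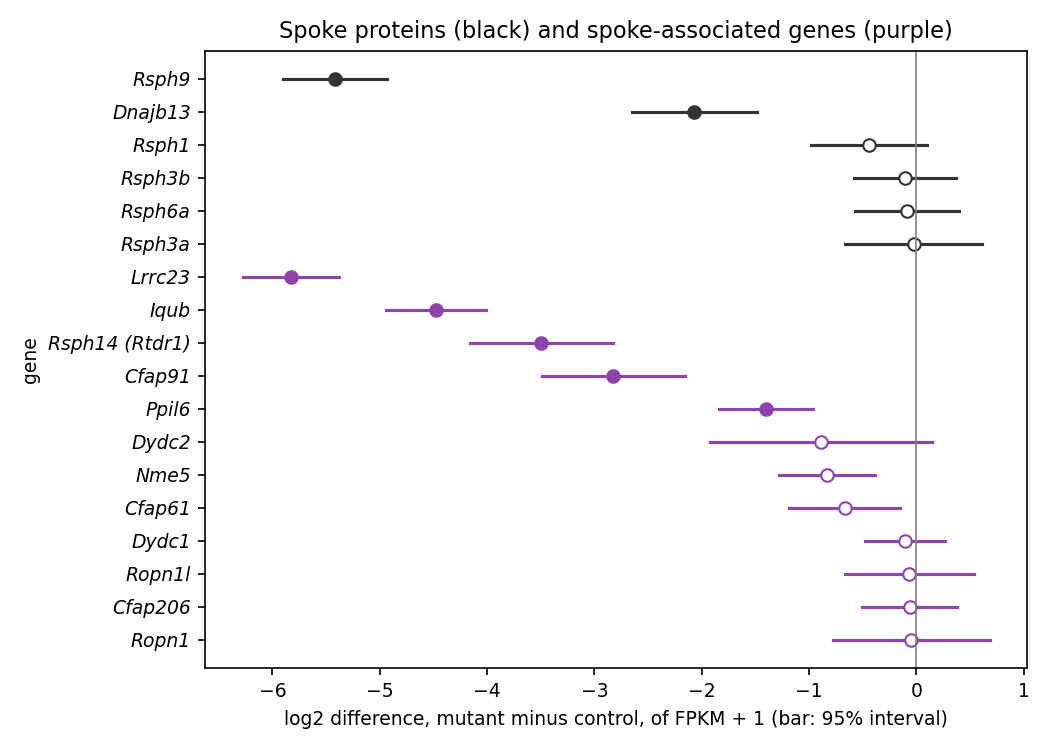
Log2 difference of FPKM + 1, mutant minus control, for 6 tested radial spoke genes (black) and 12 spoke-associated genes (purple), with 95% intervals from limma. Filled circles are the 7 genes that were lower at an adjusted p under 0.05. Rsph9, Lrrc23, Iqub and Rsph14 lie furthest to the left, and no point lies to the right of 0.

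Rsph14, an armadillo repeat protein of the spoke that the files list as Rtdr1, was also among these lower genes. Its FPKM was 0.168 in mutant 1, 0.315 in mutant 2, 17.3 in control 1 and 9.69 in control 2 (log2 difference -3.50, SE 0.29, adjusted p = 0.000446 from limma). The mutant values rested on about 3 and 6 fragments, and with a pseudocount of 0.1 the log2 difference was -5.29. Rsph14 lies on the minus strand at chr10:74420222-74495331. All 49731 bases of Gnaz, a G protein alpha subunit gene, lie inside it on the plus strand, without shared exon bases. Gnaz went the other way, with an FPKM of 22.7 and 22.7 in the mutants and of 1.80 and 1.03 in the controls (log2 difference 3.31, SE 0.23, adjusted p = 0.000198 from limma), the highest log2 difference of all tested genes. Rab36, a Rab GTPase gene whose start is 4472 bases from that of Rsph14 on the opposite strand, had an FPKM of 2.10 and 1.91 in the mutants and of 7.45 and 6.56 in the controls (log2 difference -1.41, SE 0.21, adjusted p = 0.0108 from limma). The strandedness of the libraries is not given in the sources used here. Gnaz and Rab36 were named after their values were seen, as neighbours of Rsph14.

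**Figure D4:**
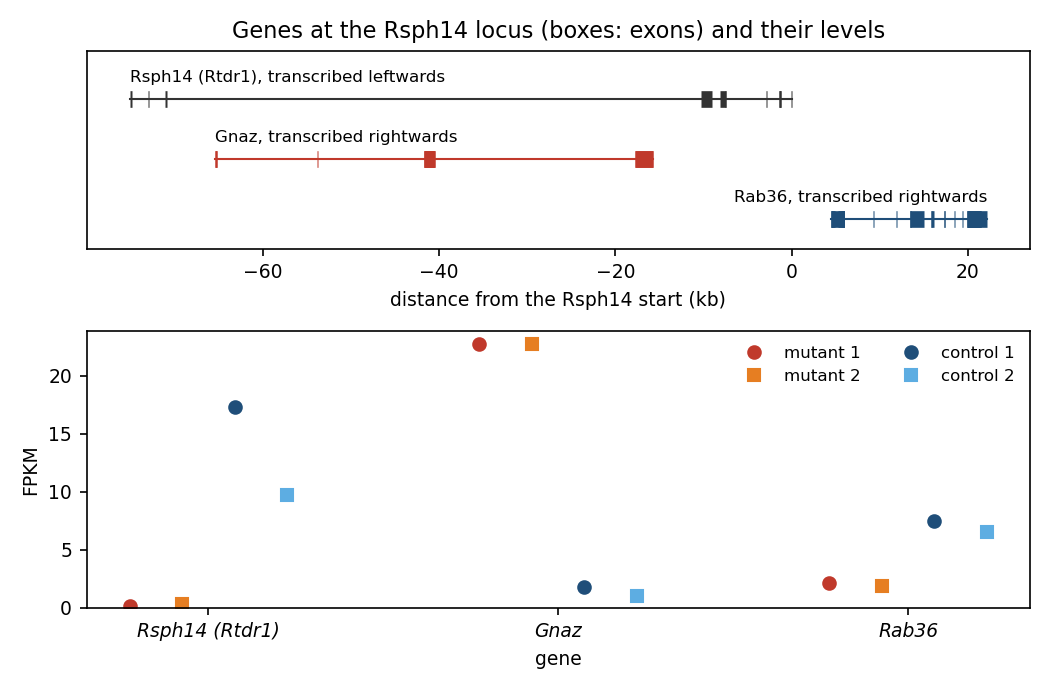
Top, exons of Rsph14, Gnaz and Rab36 by distance in kb from the Rsph14 start. Bottom, FPKM of the 3 genes by sample. Rsph14 and Rab36 are low in both mutants, and Gnaz is at 22.7 in both mutants and at most 1.80 in the controls.

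Other complexes that meet the spokes in the axoneme were set beside them. Of 12 central pair genes tested 3 were lower and none was higher by limma, with a median log2 difference of -0.24. The largest differences were those of Spef2 (-2.65), Cfap46 (listed as E030019B06Rik, -2.35) and Spag17 (-1.89). Of 13 genes of the nexin-dynein regulatory complex and the axonemal ruler, which fixes where spokes attach, 7 were lower and none was higher, with a median of -0.76. The largest differences were those of Drc1 (listed as Ccdc164, -5.17), Drc7 (listed as Ccdc135, -4.17) and Ccdc40 (-2.90), a ruler protein. By limma 2.52% of all tested genes were lower and 0.308% higher, with a median of 0.03. Both mutants lay below both controls for 7 of 12 spoke-associated, 8 of 12 central pair and 10 of 13 nexin-dynein and ruler genes. Of all tested genes 15.2% did so. They lay above both controls for 0, 0 and 1 in the same order, against 16.3% of all tested genes. In each of the 4 lists, the genes called lower stood beside genes of the same structure that did not pass the test. Some of these differed little between the groups, such as Rsph6a, Ropn1l and Spag6. Spag6, a central pair protein chosen after its values were seen, had an FPKM of 152 and 149 in the mutants and 162 and 147 in the controls.

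**Figure D5:**
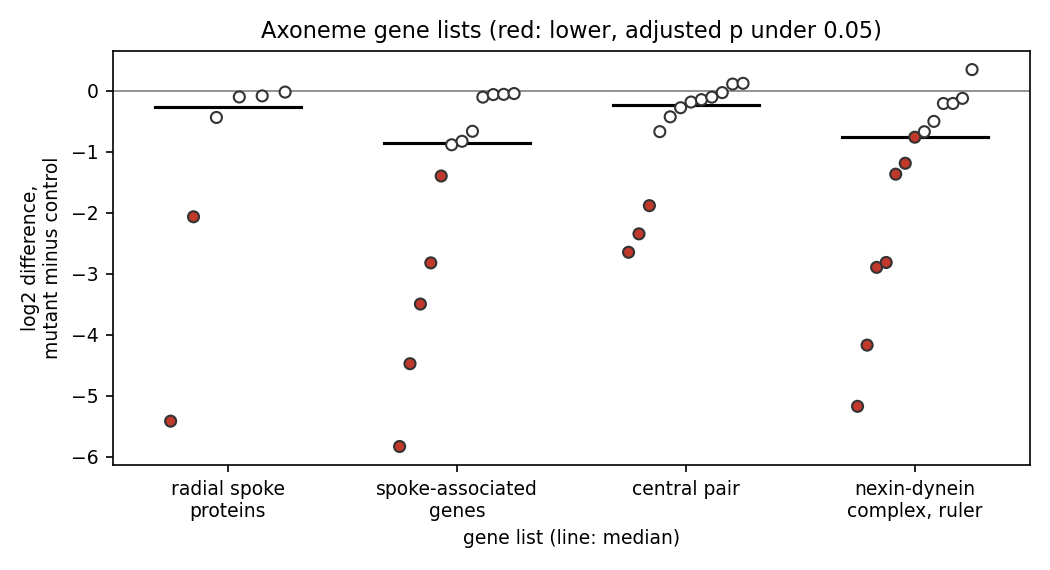
Log2 difference, mutant minus control, of each tested gene in 4 axoneme lists, with 1 point per gene, red where it was lower at an adjusted p under 0.05 in limma, and a line at the median. The lists hold 2 of 6, 5 of 12, 3 of 12 and 7 of 13 red points, against 2.52% of all tested genes.

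The genes most like Rsph9 in pattern were found by the Euclidean distance between the 4 log2(FPKM + 1) values, each centred on its own mean over the 4 samples. The 5 nearest were 1700012P22Rik at a distance of 0.224, 1700024G13Rik at 0.256, Ccdc42 at 0.264, Ccdc11 at 0.314 and 1700001C02Rik at 0.346. All 5 were below an FPKM of 1 in both mutants. They were picked by likeness to Rsph9, so these values are a description and no separate support. Ccdc42, for example, had 0.605 and 0.540 in the mutants and 94.0 and 61.1 in the controls.

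RFX proteins bind the X-box, a motif with 2 similar arms that hold 12 positions in all and a gap of 0 to 3 bases between them. In the study's consensus the arms read GTNRCC and RGYAAC, with N any base, R a purine and Y a pyrimidine. The position N was left free in the search. The motif was searched on both strands of NCBIM37 within 1000 bases of the annotated starts. An X-box without mismatch was found near 3 of 7 spoke genes (Rsph3a, Rsph3b and Rsph4a), near 3 of 12 spoke-associated genes (Dydc1, Lrrc23 and Ppil6), and near 5.99% of 12414 tested genes with a position. With 1 mismatch allowed it was found near 5 of 7 and 12 of 12, against 57.1% of tested genes. A match of this kind is thus common within 1000 bases of a start. Rsph9 and Rsph6a had none even then. From 250 bases before to 50 bases after a start, matches without mismatch were found for 0 of 7 spoke genes, 3 of 12 spoke-associated genes and 2.72% of tested genes. With 1 mismatch allowed, this shorter window held a match for 3 of 7 spoke genes (Rsph1, Rsph3a and Rsph4a). It then held one for 10 of 12 spoke-associated genes and 18.9% of tested genes. Of the 3 spoke genes with a match without mismatch, Rsph3a and Rsph3b were not called, and Rsph4a was too low to be tested. Their matches all lay after a start, and those of Rsph3a and Rsph3b have the same letters. Dnajb13 had matches with 1 mismatch only. Whether a match goes with a lower level was not tested. The matches show letters in a window and not binding, which was not measured in these files.

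The 250 bases before the most upstream annotated start are shown for Rsph9 and Dnajb13, which were lower, for Rsph1, which was the most abundant, and for Rsph14, from NCBIM37, 5′ to 3′ on the strand of each gene. Capitals mark an X-box with 1 mismatch, which only the latter pair held here, that of Rsph1 when read on the other strand. The stretches are chr17:46281166-46281415, chr7:107663470-107663719, chr17:31414302-31414551 and chr10:74495332-74495581, all on the minus strand.
Rsph9: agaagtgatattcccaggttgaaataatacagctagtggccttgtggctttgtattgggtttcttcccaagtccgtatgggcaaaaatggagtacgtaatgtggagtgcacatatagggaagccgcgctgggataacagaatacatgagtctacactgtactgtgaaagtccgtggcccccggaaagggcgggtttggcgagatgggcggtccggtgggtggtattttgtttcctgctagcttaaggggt
Dnajb13: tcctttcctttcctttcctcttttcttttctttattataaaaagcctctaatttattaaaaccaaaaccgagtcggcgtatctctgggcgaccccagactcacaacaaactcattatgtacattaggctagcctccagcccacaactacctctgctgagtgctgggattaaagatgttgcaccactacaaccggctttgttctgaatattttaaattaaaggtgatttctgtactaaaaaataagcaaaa
Rsph1: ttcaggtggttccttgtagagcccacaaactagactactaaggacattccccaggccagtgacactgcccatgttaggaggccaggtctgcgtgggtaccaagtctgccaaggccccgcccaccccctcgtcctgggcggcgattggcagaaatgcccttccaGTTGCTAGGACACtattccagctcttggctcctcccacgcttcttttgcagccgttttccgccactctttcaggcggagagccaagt
Rsph14: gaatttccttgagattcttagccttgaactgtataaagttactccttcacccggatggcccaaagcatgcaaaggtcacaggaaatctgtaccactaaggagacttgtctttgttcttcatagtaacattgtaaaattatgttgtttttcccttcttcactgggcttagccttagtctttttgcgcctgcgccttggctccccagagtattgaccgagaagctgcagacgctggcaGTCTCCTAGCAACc

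The matches themselves are shown with 8 bases on either side, capitals again marking the X-box, to set genes called lower beside genes that were not called. All are printed on the strand of the gene. For Ppil6, Rsph3a and Iqub the mismatches named are those of the capitals read on the other strand. Lrrc23 (chr6:124729889-124729917, minus strand, 164 to 152 bases before a start) and Ppil6 (chr10:41210226-41210255, plus strand, across a start) were lower in the mutants and had no mismatch. Dydc1 (chr14:41886133-41886161, plus strand, 88 to 76 bases before a start) and Rsph3a (chr17:8138845-8138873, plus strand, in an exon) had no mismatch and were not called. The same 29 bases as in Rsph3a stand in Rsph3b. Iqub (chr6:24465058-24465086, minus strand, across its start) was lower and had 1 mismatch.
Lrrc23: ttggcctcGTAACCTGGCAACtactgagc
Ppil6: gccacgcgGTTGCCCTGGCGACtcgcacta
Dydc1: gtgctctcGTTGCCAGGCAACgggacgcg
Rsph3a: aacctcggGTTGCTCGGCAACcgatgggg
Iqub: agctggcaGTTGCTAGGATACgccagcaa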

How the data were processed

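Reads were aligned by the authors to mm9 with TopHat2 2.0.6, and the authors deposited FPKM per gene and sample from Cufflinks, along with confidence bounds. FPKM are normalized for gene length and sequencing depth, and the deposited values were taken as they stand. The sources used here do not state strandedness. Fragment numbers named in the text are those the width of the bounds implies and are approximate. The labels number the samples of a group 1 and 2, and the study describes them as independent biological samples.

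Values of rows with the same symbol were summed, log2(FPKM + 1) was taken, and genes that reached an FPKM of 1 in 2 or more of the 4 samples were tested with limma 3.58.1 under R 4.3.3 (lmFit, eBayes with trend, two-sided, Benjamini-Hochberg adjustment), after a test on simulated data. The members and the lists were chosen with earlier results of these data known. Named were all members, Rfx2, the spoke-associated list, the 5 genes nearest in pattern to the member with the largest absolute log2 difference, and up to 3 genes with the largest differences in each other list. Starts, exons and sequences came from NCBIM37 with GENCODE M1. The alternatives were other pseudocounts, filters and scaling, eBayes without trend or robust, the highest row, replicate blocks, each sample left out, and other X-box settings. Real-time PCR and staining were not analysed here. Figures were drawn with matplotlib 3.10.9.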

Additional observations from a re-analysis of the deposited data

How the results depend on the processing

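Rsph9 was lower and called under all 13 alternatives, with log2 differences between -6.27 and -5.21. The number of spoke genes lower in the mutants was 1 in place of 2 without a filter (1) and with median-ratio scaling (1), and between 1 and 2 with a sample left out, since Dnajb13 was not called without control 1; no spoke gene was higher under any alternative. Spoke-associated genes called lower numbered 5 or 6, and 4 to 7 with a sample left out. Over all tested genes 327 were lower and 40 higher. These were 199 and 17 without a filter, 202 and 17 with an FPKM of at least 5, and 206 and 16 with median-ratio scaling, and 67 were higher with robust eBayes. With a replicate block from the sample numbers 525 were lower and 70 higher. Over 12985 genes, samples of one number deviated from their group means with r = -0.15, so the numbers were not taken to pair the samples. With the crossed pairing, added after seeing the data, 266 were lower and 28 higher. Leaving out a sample gave between 167 (without control 1) and 948 (without mutant 2) lower genes, and between 13 (without control 2) and 162 (without mutant 1) higher genes. The lone sample of a group was then assumed to vary like the other group.

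Differences near 0 changed sign with a sample left out and were never called. The log2 difference then ranged from -0.34 to 0.29 for Rsph3a (also 0.28 without control 1), from -0.33 to 0.12 for Rsph3b, from -0.36 to 0.19 for Rsph6a, from -0.57 to 0.47 for Ropn1 (0.058 without control 1), from -0.24 to 0.10 for Ropn1l (0.034 without mutant 1), and from -0.17 to 0.048 for 1700003M02Rik (0.0051 without mutant 1). By limma, Nme5 was called with the replicate block (adjusted p = 0.00610), with robust eBayes (0.0115) and without mutant 1 (0.0459) or mutant 2 (0.000962). Spoke genes with an X-box numbered 5 in place of 3 with 1 mismatch. Without mismatch they numbered 0 in the shorter window, which was added after seeing the data. Causes of these changes were not tested. The mutant values of Rsph9, Lrrc23 and Rsph14 rest on few fragments at this depth.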
